A study of Mus musculus with 4 samples.

Results

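The 10 genes described here encode the enzymes that make and break down polyamines and the proteins that control the first of these enzymes: Odc1, Amd1, Srm, Sms, Azin1, Oaz1, Oaz2, Sat1, Smox and Paox. They were chosen by gene symbol from knowledge of the pathway, and all 10 were found among the 50600 gene identifiers of the deposited tables. RNA was sequenced from primary T-helper 17 (Th17) cells of C57BL/6NJ mice in 4 libraries of 1 group, numbered as biological replicates 1 to 4 in the labels. The labels give separate biosamples but 1 donor identifier, no genetic change and no treatment, and they state that age is unknown and sex was not collected. They link a protocol for the differentiation of CD4+ T cells, and a tag of 2 hours stands in the file headers with no starting point named. Whether separate mice or cultures gave the biosamples is not stated. The SDs therefore measure only the spread between these libraries, which may be technical in part, and the p-values speak only of these libraries. The assay is labelled total RNA-seq, while the linked library protocol is named for poly(A)+ RNA, so the RNA selection behind the levels is uncertain.

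Polyamines are small, positively charged molecules that bind nucleic acids and are needed for growth. Ornithine decarboxylase (Odc1) converts ornithine to putrescine, and S-adenosylmethionine decarboxylase (Amd1) supplies the aminopropyl donor with which spermidine synthase (Srm) and spermine synthase (Sms) extend putrescine to spermidine and spermidine to spermine. Antizymes (Oaz1, Oaz2) bind ornithine decarboxylase, send it to the proteasome and limit polyamine uptake, whereas the antizyme inhibitor (Azin1), a relative of ornithine decarboxylase without its enzyme activity, binds antizyme and frees the enzyme. In turnover, spermidine/spermine acetyltransferase (Sat1) acetylates both polyamines, the acetylated forms are exported or oxidised by Paox, and Smox oxidises spermine directly back to spermidine. T cells raise polyamine synthesis when they are activated, and in Th17 cells the pathway is known for its part in the balance with regulatory T cells.

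Several members are controlled at translation, which counts of mRNA fragments do not measure. Antizyme mRNAs are read in full only when the ribosome shifts frame at the stop codon of a short first reading frame, a step that polyamines promote. The 2 frameshift sites of the mouse antizymes are shown because their mRNA levels, given below, cannot be read as antizyme protein. The capitals mark the codon before the stop, the stop codon and the base after it, in GENCODE M21 transcripts on mm10. Oaz1 lies at chr10:80828280-80828309, plus strand, and Oaz2 at chr9:65686257-65686286, plus strand.
Oaz1: cctcggtggtgcTCCTGATgtccctcaccc
Oaz2: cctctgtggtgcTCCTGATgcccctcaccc
The sites were identical at 28 of 30 bases. In the annotation the coding frame steps over a single base at position 80828295 in 3 transcripts of Oaz1 and at position 65686272 in 2 transcripts of Oaz2.

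Amd1 carries a short upstream reading frame in its first exon that is known to hold back translation when polyamines are abundant. It is shown because, relative to its mean, Amd1 varied least of the members in TPM. It spans chr10:40302155-40302175 on the minus strand of mm10 and has 6 codons before its stop, with 296 bases between it and the main start codon; the capitals cover the whole frame from start to stop.
Amd1: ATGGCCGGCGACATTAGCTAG

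Total counts were between 25847970 and 40652146 per library, and no pair of libraries held identical values. The general T cell genes were present, with Cd3e at 226 ± 18.8 TPM (counts divided by exon length and scaled to 1000000 per library, SD, n = 4) and Cd4 at 364 ± 35.1 TPM. Of the Th17 markers, Il17a stood at 5.65 ± 1.20 and Il17f at 12.4 ± 5.91 TPM, while Il23r and Ccr6 stood at 0.132 ± 0.124 and 0.207 ± 0.177 TPM. The label is therefore used as given, with these Th17 markers low. Both natural killer markers, both globin genes and the B cell marker Ms4a1 were at 0 counts throughout; for counting error only, that leaves room for up to 0.116 CPM each (counts scaled to 1000000 per library) in the shallowest library. The summed level of 4 myeloid markers was 0.697 to 1.26 TPM, with 0 of 4 at a mean of 1 TPM. That of 3 B cell markers was 0.392 to 1.71 TPM and that of the non-immune markers Col1a1 and Epcam 7.19 to 10.1 TPM. The 2 CD8 T cell markers summed to 21.2 to 31.2 TPM, but they differed. Cd8b1 stood at 27.0 ± 4.86 TPM, and Cd8a at 0.216 ± 0.184 TPM with 5, 18, 9 and 0 counts in replicates 1 to 4. Although the labels give 1 donor identifier, Xist, the RNA of the inactive X, stood at 0.791, 0.602, 142 and 76.5 TPM in replicates 1 to 4, and the Y-linked Ddx3y at 305, 213, 0.914 and 1.39 TPM. Replicates 1 and 2 thus stood apart from replicates 3 and 4, as male and female cells would, so more than 1 animal seems to have contributed and the spread between libraries is not technical alone. Member values are given for every library. In such bulk RNA, fewer cells of a type and less RNA per cell cannot be told apart.

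The genes of the pathway stood at very different levels. Odc1 was the most abundant member and Paox the least, and 9 of the 10 members had a mean of at least 1 TPM. Together the members took 0.143 to 0.173% of all counts. Odc1 alone made up 51.1 ± 4.65% of their summed TPM. By mean TPM the order was Odc1, Sat1, Oaz1, Srm, Azin1, Amd1, Smox, Sms, Oaz2 and Paox. Neighbours in this order did not overlap in 6 of 9 cases. The 3 that overlapped were Sat1 with Oaz1, Srm with Azin1 and Sms with Oaz2, so their order is not resolved. The place of Amd1 is uncertain as well, although its values overlapped with no neighbour. Of its 31-mers (stretches of 31 bases), 82.8% also occur in other genes, and its level may be too low, as described below.

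**Figure D1:**
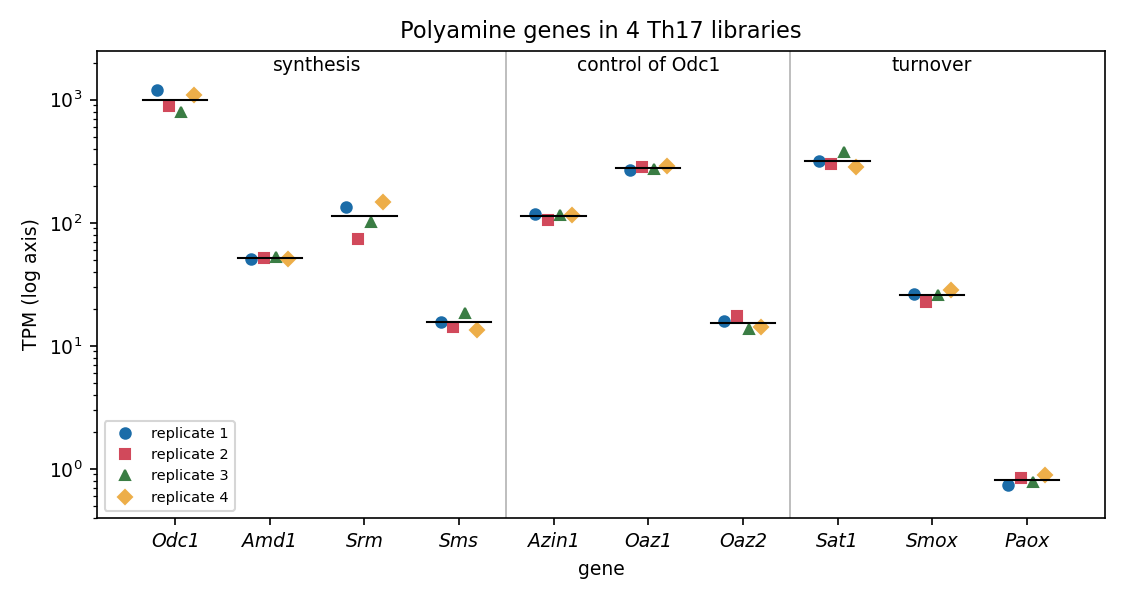
TPM (log axis) of the 10 polyamine genes in each of the 4 Th17 libraries, with a line at the mean. Odc1 lies above every other member in every library, and Paox lies below 1 TPM in every library.

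Among the synthesis enzymes, Odc1 stood at 1194, 890, 797 and 1086 TPM in replicates 1, 2, 3 and 4. Replicates 1 and 4 were the high libraries and replicate 3 the lowest. Its mean of 992 ± 180 TPM lay above 99.4% of 21764 protein-coding genes. The gene lies on chromosome 12 from 17544873 to 17551502 (mm10, plus strand), and its values rest on 96431 counts. Of its distinct 31-mers, 31.3% also occur in transcripts of other genes, chiefly the gene models Gm7993 and Gm9115. Fragments that align to several places were not counted, so the level of Odc1 may be an underestimate.

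Amd1, the other decarboxylase, stood at 50.4, 52.0, 52.5 and 51.1 TPM. Its values were close together, with a mean of 51.5 ± 0.947 TPM and a coefficient of variation of 1.84%, the smallest of the 10 members. On the other hand, 82.8% of its 31-mers recur in other genes, most of them in Amd2, a near-identical copy that itself had 65 counts in all. The level of Amd1 is therefore uncertain and may be too low.

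Srm, which makes spermidine, stood at 135, 74.3, 101 and 147 TPM. Replicates 4 and 1 were high and replicate 2 was the lowest, and the highest library stood 1.98-fold above the lowest. The mean was 114 ± 33.0 TPM, with a coefficient of variation of 28.8%, the largest of the 10. Sms, which makes spermine, stood at 15.7, 14.3, 18.6 and 13.6 TPM, highest in replicate 3 and lowest in replicate 4. Its mean was 15.5 ± 2.23 TPM. Srm thus exceeded Sms by 5.19- to 10.8-fold per unit of length, and the difference in log2(TPM + 1) was 2.76 ± 0.51, positive in 4 of 4 libraries. With the longest transcript as length the means were 111 and 20.4 TPM, and the difference was 2.35. Of the 31-mers of Sms 18.8% recur in other genes, chiefly Sms-ps, and of those of Srm 9.41%. Both levels may therefore be too low.

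The 300-base promoter windows of Odc1 and Amd1 run from 250 bases before to 50 after the annotated start. Both are shown for their spread among the members with an entry in the RefSeq promoter table for GRCm38.p6. By coefficient of variation of TPM, Odc1 had the widest spread of these, 18.2%, and Amd1 the narrowest, 1.84%. Entries were found for 8 of the 10 members. The capitals mark the GC box GGGCGG, read on both strands. Odc1 lies at chr12:17544623-17544922, plus strand, and Amd1 at chr10:40302139-40302438, minus strand.
Odc1: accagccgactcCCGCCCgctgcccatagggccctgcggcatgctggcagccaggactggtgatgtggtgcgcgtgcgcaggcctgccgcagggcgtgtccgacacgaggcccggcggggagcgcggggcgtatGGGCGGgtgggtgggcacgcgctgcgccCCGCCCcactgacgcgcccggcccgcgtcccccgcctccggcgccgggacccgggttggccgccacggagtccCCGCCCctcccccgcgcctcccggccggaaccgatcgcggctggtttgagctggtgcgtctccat
Amd1: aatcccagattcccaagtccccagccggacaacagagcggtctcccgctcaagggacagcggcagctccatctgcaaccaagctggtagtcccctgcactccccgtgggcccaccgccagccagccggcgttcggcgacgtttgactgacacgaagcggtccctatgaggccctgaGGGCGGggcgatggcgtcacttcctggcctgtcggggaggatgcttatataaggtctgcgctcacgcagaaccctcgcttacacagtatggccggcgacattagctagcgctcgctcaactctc
The Odc1 window held 4 GC boxes and the Amd1 window 1. Among 32851 promoter windows of this length, 35.7% held at least 1. The E-box CACGTG, a sequence that MYC and its partners can bind, was in neither window and in 7.15% of all windows; among the members it was found in 1 of the 2 Sms windows. The letters TATAAA were found, among the 8 members with an entry, in the Oaz1 window alone, and in 13.6% of all windows. GC boxes in the windows of the other members numbered 6 for Smox, 4 for Oaz2, 2 for Sat1 and 0 for Oaz1. Paox held 3 in each of its 2 windows, and the 2 windows of Sms held 0 and 4. Whether GC boxes go with spread was not tested. All of these are matches of letters and say nothing of binding. Sequence outside the windows was not searched, and Srm and Azin1 had no entry to search.

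Myc, a known activator of Odc1 transcription, stood at 1666, 1768, 1720 and 1610 TPM. By TPM it was lowest in replicate 4. On the log2 CPM scale with TMM library sizes it stood at 10.38, 10.51, 10.30 and 10.39, lowest in replicate 3, where Odc1 was also lowest. Replicate 2 was its highest library on both scales. Its range on the log2 CPM scale was 0.21, and Myc was not called as varying in the edgeR test described below (unadjusted p = 0.907). The order of its libraries is therefore a description only.

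Of the genes that control ornithine decarboxylase, Oaz1 stood at 268, 286, 273 and 291 TPM. The libraries lay close together, with a mean of 279 ± 10.8 TPM. Oaz2, the second antizyme, stood at 15.9, 17.4, 13.6 and 14.2 TPM, with a mean of 15.3 ± 1.70 TPM. Oaz1 mRNA was thus 18.5 ± 2.09 times as abundant as Oaz2 mRNA per unit of length, and no library overlapped. With the longest transcript as length the means were 229 and 20.1 TPM, and the difference in log2(TPM + 1) was 3.46. The pseudogenes Oaz1-ps and Oaz2-ps account for most of the 24.0% and 11.98% of 31-mers that these genes share with others.

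Azin1, the antizyme inhibitor, stood at 118, 106, 117 and 117 TPM. Replicate 2 was the lowest and the other 3 libraries were nearly equal. The mean was 114 ± 5.39 TPM. It shares 0.0942% of its 31-mers with other genes, so little of its sequence recurs in other annotated transcripts. Sequence outside the annotated transcripts was not compared. Azin1 mRNA stood at 0.410 ± 0.0301 times the level of Oaz1 mRNA, with 0.439, 0.372, 0.428 and 0.401 in replicates 1 to 4. Odc1 mRNA stood at 4.45, 3.11, 2.93 and 3.73 times the level of Oaz1 mRNA, and at 3.37 ± 0.648 times the level of both antizymes together. In every library, therefore, mRNA for the enzyme exceeded mRNA for its antizymes, and mRNA for the antizyme inhibitor was below that of Oaz1.

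Turnover genes were led by Sat1, the acetyltransferase, at 319, 303, 375 and 285 TPM. Replicate 3 was the highest library and replicate 4 the lowest. The mean of 320.5 ± 38.8 TPM made Sat1 the second most abundant member, above 98.0% of protein-coding genes. With the length of the longest annotated transcript in place of the union of exons its level rose to 533 TPM, since that transcript has 1352 of the 2774 exon bases. Smox, the spermine oxidase, stood at 26.6, 22.8, 26.1 and 28.4 TPM, with a mean of 26.0 ± 2.34 TPM and no 31-mers shared with other genes. Paox, the oxidase of acetylated polyamines, stood at 0.737, 0.850, 0.780 and 0.897 TPM. These values rest on 38, 51, 29 and 34 counts, and 30.3% of the 31-mers of Paox recur across many other genes. Acetyltransferase mRNA was thus 12.4 ± 1.86 times as abundant as Smox mRNA, and Smox mRNA 32.0 ± 3.91 times as abundant as Paox mRNA. With the longest transcript as length the means of Smox and Paox were 35.6 and 0.697 TPM, a wider gap.

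Sms and Sat1 lie on the X chromosome, at 157443855 to 157492287 and 155213132 to 155216449. For both, replicate 3 was the highest library and replicate 4 the lowest, and these are the libraries with high Xist. The values of replicates 1 and 2, with high Ddx3y, lay between them for both genes. Neither Sms nor Sat1 was called as varying in the edgeR test described below (unadjusted p = 0.795 and 0.902), so these orders are a description only. Odc1 and Srm were high in replicate 1, where Ddx3y was high, and in replicate 4, where Xist was high.

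The question for the pairs of members with related roles was whether the order of their mRNA levels was the same in every library. Over 8 pairs the difference in log2(TPM + 1) kept its sign in 4 of 4 libraries. It was 4.22 ± 0.29 for Odc1 over Amd1, 1.81 ± 0.27 for Odc1 over Oaz1, 3.09 ± 0.24 for Odc1 over Azin1 and 1.62 ± 0.39 for Odc1 over Sat1. It was 4.11 ± 0.15 for Oaz1 over Oaz2, 3.57 ± 0.22 for Sat1 over Smox and 3.89 ± 0.14 for Smox over Paox. With Srm over Sms above, each of the 8 had p = 0.13 in the two-sided exact sign-flip permutation test (adjusted p = 0.13 over the 8 pairs), the smallest that 4 libraries allow, so no pair could pass 0.05. With the longest transcript as length, the difference of Odc1 over Sat1 was 0.79.

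The libraries were then compared with each other: a gene was called as varying when its 4 counts differed by more than the edgeR trend for genes of like abundance allows. All 10 members passed the expression filter and were tested. Srm was the single member called, against a background of 0.813% called among 11567 tested genes. With 10 members, 1 call is no statement about the pathway as a whole. The edgeR adjusted p of Srm, over all tested genes, was 0.0351, and 0.692% of tested genes had a larger deviance. On the log2 CPM scale with TMM library sizes Srm deviated from its own mean by 0.29, -0.53, -0.25 and 0.48 in replicates 1 to 4, a range of 1.00. The call ended without replicate 1 (adjusted p = 0.129), without replicate 2 (0.435) or without replicate 4 (0.491). It also ended without the expression filter (0.0725) and with 1 common dispersion (0.128). Without replicate 3 the adjusted p was 0.0122. Srm was highest in the library with the fewest counts, replicate 4, and lowest in that with the most, replicate 2. Between these, however, Srm was higher in replicate 1 than in replicate 3, although replicate 1 had more counts. The Th17 cytokine genes were likewise highest in replicate 4 and lowest in replicate 2, with Il17f at 10.2, 7.04, 11.7 and 20.8 TPM and Il17a at 6.09, 4.12, 5.41 and 6.96 TPM in replicates 1 to 4. Il17f was called as varying, and Il17a was not, so the order of the Il17a libraries is a description only. Il23r had 2, 1, 2 and 6 counts and Ccr6 had 5, 2, 1 and 7 counts in replicates 1 to 4. Neither Il23r nor Ccr6 passed the expression filter, and with so few counts the order of their libraries is not resolved. Col1a1 and Epcam summed to 7.61, 7.36, 7.19 and 10.1 TPM and the 4 myeloid markers to 1.26, 0.697, 0.882 and 0.761 TPM. The part of depth and of marker content in the variation of Srm was not tested.

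Odc1 had the next widest range, 0.71 on the log2 CPM scale, with deviations of 0.29, -0.09, -0.42 and 0.22 in replicates 1 to 4. Its unadjusted edgeR p was 0.0550 and its adjusted p 0.862, so it was not called. Replicates 1 and 4 were the 2 highest libraries on this scale for 4 of the 10 members, Odc1, Srm, Azin1 and Smox, and for 20.7% of all tested genes. The edgeR adjusted p of each of the 8 members other than Srm and Odc1 was 1.00. The median range over the 10 members was 0.31, and over all tested genes 0.40. The narrowest ranges were those of Amd1 at 0.15, Azin1 at 0.19 and Sat1 at 0.21. Differences between libraries of this size depend on the scale: by TPM the highest library of Amd1 was replicate 3, while by log2 CPM with TMM it was replicate 2.

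**Figure D2:**
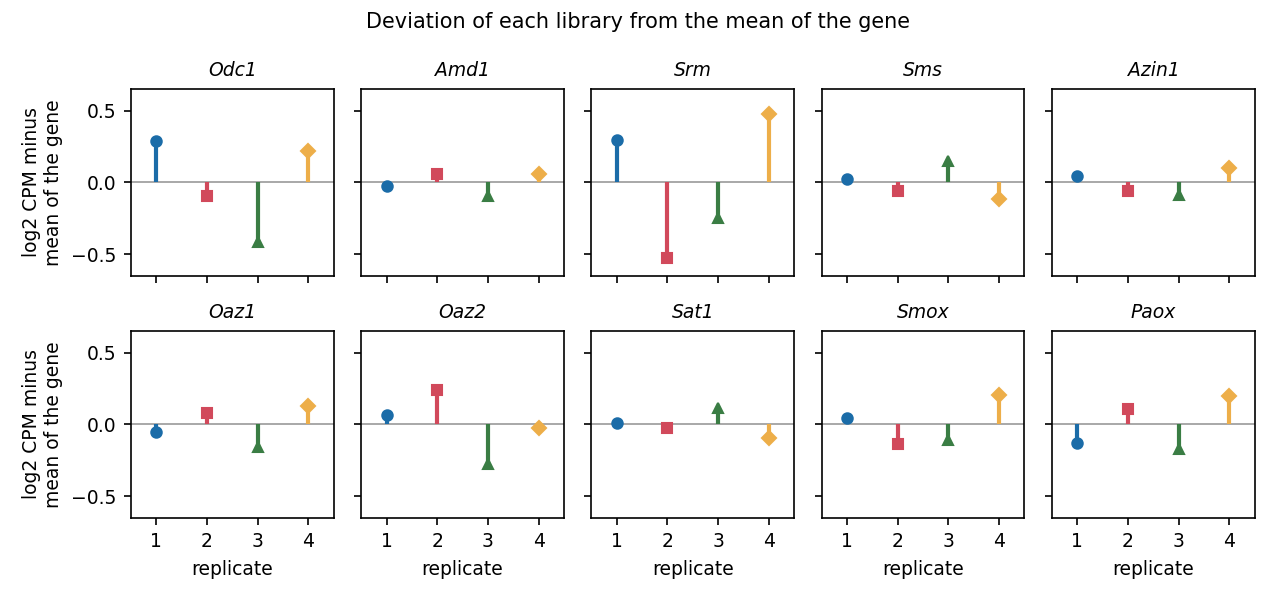
Deviation of each library's log2 CPM (TMM library sizes) from the mean of the gene, for the 10 polyamine genes by replicate. Srm spans -0.53 to 0.48 and Odc1 -0.42 to 0.29, and both lie above their mean in replicates 1 and 4.

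**Figure D3:**
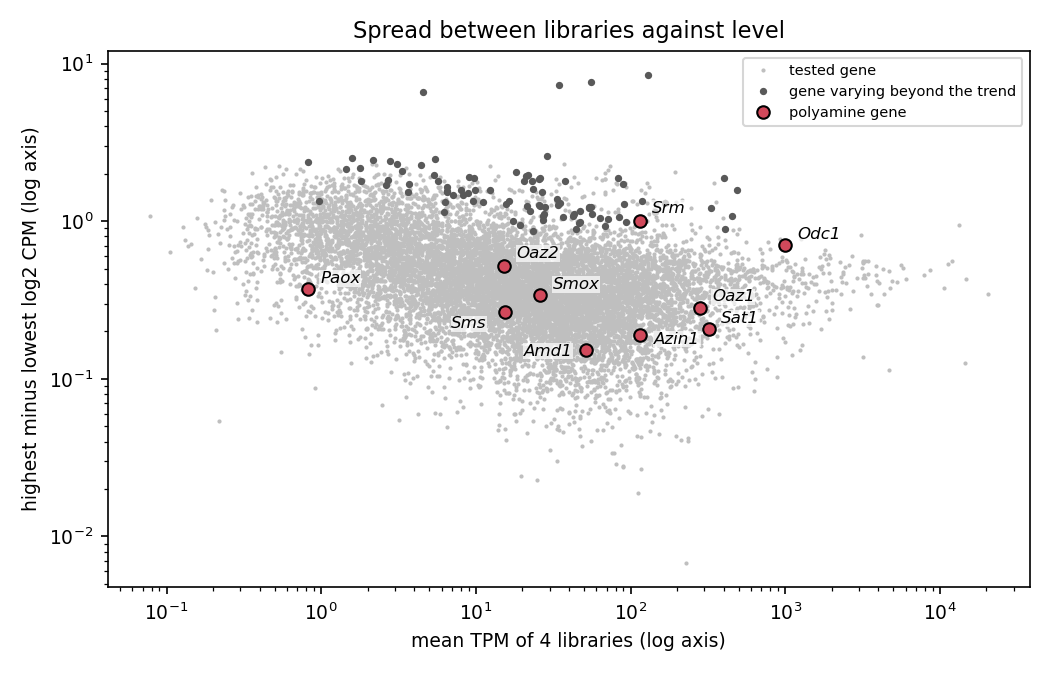
Highest minus lowest log2 CPM over the 4 libraries (log axis) against mean TPM (log axis) for 11567 tested genes, with genes varying beyond the trend in dark grey and the polyamine genes in red. Srm, at a range of 1.00, lies among the varying genes, while Amd1, Azin1 and Sat1 lie at ranges of 0.15 to 0.21.

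The genes whose centred log2 CPM over the 4 libraries lay nearest to that of Srm, among 10919 other tested genes of at least 1 TPM, were Hk2, 4932438A13Rik and Sh3bp2. Their root mean square differences from Srm were 0.0383, 0.0434 and 0.0452. Hk2, which encodes a hexokinase of glycolysis, stood at 7.46, 4.23, 6.02 and 8.39 TPM. Sh3bp2, an adaptor of immune receptor signalling, stood at 49.996, 27.4, 35.9 and 56.8 TPM. For this pair replicate 4 was the highest library and replicate 2 the lowest, as for Srm, which follows from how the genes were chosen. The gene model 4932438A13Rik stood at 131, 68.8, 94.0 and 131 TPM, and it too was lowest in replicate 2. Odc1 was at rank 638 of the 10919 by the same measure. The edgeR adjusted p was 0.393 for Hk2, 0.112 for 4932438A13Rik and 0.0102 for Sh3bp2. Of these nearest genes Sh3bp2 alone was thus called as varying. Likeness over 4 libraries is a description of these libraries only.

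Around the pathway, 30 related genes were examined, of which 21 had a mean of at least 1 TPM and 5 had 0 counts in every library. The edgeR test covered 21 of them and called 0, with 0 at an unadjusted p under 0.05, against 0.813% called and 692 of 11567 at that unadjusted p among all tested genes. For a set of 21 genes, no call is near this background. The median range of the 21 was 0.28 on the log2 CPM scale, and that of all tested genes 0.40.

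Hypusination uses spermidine to modify the translation factor eIF5A, and its genes were all present, with 4 of 4 at 1 TPM or more. Eif5a itself stood at 1499, 1466, 1252 and 1513 TPM, lowest in replicate 3. Its mean of 1433 ± 122 TPM was above that of Odc1. The modifying enzymes Dhps and Dohh stood at 43.7 ± 4.38 and 38.8 ± 1.09 TPM, and the second factor gene Eif5a2 stood lowest at 9.01 ± 1.41 TPM.

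In S-adenosylmethionine supply and methionine salvage, 8 of 8 genes reached 1 TPM. Mat2a, the catalytic subunit that makes S-adenosylmethionine, led at 518, 385, 407 and 482 TPM. Replicates 1 and 4 were its high libraries, as for Odc1, but it was not called (edgeR adjusted p = 1.00). Mtap, which recycles the by-product of both aminopropyl transfers, stood at 52.7 ± 2.60 TPM. Apip, a later enzyme of the salvage route, was the lowest at 8.78 ± 1.60 TPM.

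The genes of arginine and ornithine supply stood at uneven mRNA levels, with 6 of 9 at 1 TPM or more. Arg1, the arginase of liver and of some myeloid cells, had 0 counts in every library. Arg2, the mitochondrial arginase, had 8, 5, 0 and 1 counts in replicates 1 to 4. Agmat, annotated as an agmatinase, also had 0 counts. By contrast, Oat, the mitochondrial enzyme that interconverts ornithine and glutamate semialdehyde, stood at 142, 166, 152 and 141 TPM and led the list. Slc7a1, an importer of arginine and ornithine, stood at 113 ± 9.60 TPM, and Aldh18a1, which makes glutamate semialdehyde, at 40.0 ± 2.81 TPM. The lowest gene above 1 TPM was Slc25a15, the mitochondrial ornithine carrier, at 5.34 ± 0.744 TPM.

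Of 4 genes linked to polyamine transport 3 reached 1 TPM. Slc3a2, the heavy chain of several amino acid transporters, stood at 281 ± 25.5 TPM. Atp13a3 stood at 135, 130.0, 130 and 131 TPM, nearly level across libraries, against 9.55 ± 1.36 TPM for Atp13a2; both encode polyamine-transporting ATPases. Slc18b1, a vesicular polyamine transporter, had 0 counts in every library.

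Paralogues of the members were at or near 0, with 0 of 5 at 1 TPM. Sat2 and Satl1 had 0 counts in every library. Azin2 had 1 count and Oaz3, a testis antizyme, 2 counts over all 4 libraries. Amd2 stood at 0.503, 0.813, 0.533 and 0.121 TPM, a level that may be too low because of the sequence it shares with Amd1.

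**Figure D4:**
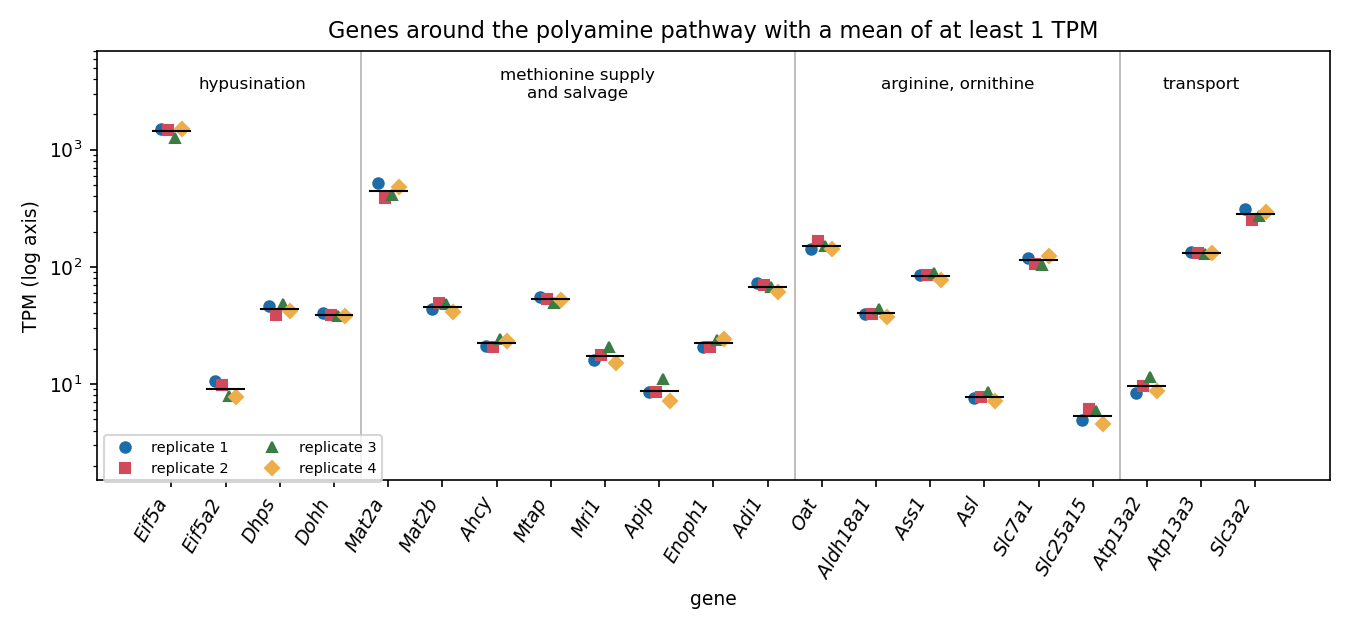
TPM (log axis) in each of the 4 libraries for the related genes with a mean of at least 1 TPM, grouped by function, with a line at the mean. Eif5a, at a mean of 1433 TPM, and Mat2a, at 448 TPM, lead their groups, and Slc25a15, at 5.34 TPM, is the lowest gene plotted.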

How the data were processed

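Per the file headers, the authors made the deposited count tables from exons of GENCODE mouse release M13, using featureCounts 1.4.6-p4 with strand option 2. A fragment was counted when both of its ends were mapped. The headers record no setting that would count fragments aligned to several places or genes, so by that tool's default these were left out. The names of the alignment files point to STAR (version not stated), and the labels name mm10. The exon length column, in bases and of other kind than the counts, comes from the same deposited tables.

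Of 50600 identifiers, 50376 were matched to symbols of release M21. TPM and CPM were computed here from the counts; total counts were 36298276, 40652146, 26953724 and 25847970 in replicates 1 to 4. Contrasts used log2(TPM + 1) and an exact sign-flip permutation test. Variation between libraries was tested with edgeR 4.0.16 in R 4.3.3 (intercept only, TMM, expression filter): a gene's deviance, taken at its trended dispersion, was referred to a chi-square distribution, with Benjamini-Hochberg adjustment over all tested genes and a threshold of 0.05. A quasi-likelihood test needs 2 groups and was not used. The step was also run on counts simulated at the trended dispersion, with some genes raised in a single library. That setting differs from the pattern of Srm, so it has no bearing on the call of Srm. DESeq2 1.42.0 gave the alternative size factors. The 31-mers came from the M21 transcripts. Remaining steps ran in Python 3.11.15 (pandas 2.3.3, numpy 2.4.6, matplotlib 3.10.9).

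The named genes are the 10 members, the genes of 5 related lists, Myc, Xist and Ddx3y, cell type markers, and the 3 genes most like the member of widest range. Within a related list the highest and lowest genes are named by rule. Dhps, Dohh, Mtap, Arg2, Aldh18a1, Slc7a1 and Atp13a3 were added for their role after their values were seen. Members, lists and tests were chosen with earlier results of these data known. Results for 1 of the cell type markers are not reported here.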

Additional observations from a re-analysis of the deposited data

Results flagged for a closer look

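Among 39 sets of 4 library values (the 10 members, the 8 contrasts and the 21 related genes of at least 1 TPM), 1 held a library far from the other 3. Azin1 stood at 106 TPM in replicate 2 and between 117 and 118 TPM in the other libraries. The gap was 0.900 of the whole range, above Dixon's critical value of 0.83 for 4 samples. Chance flags about 1 in 20 such sets. The gap is one of TPM: on the log2 CPM scale with TMM library sizes Azin1 deviated from its mean by 0.05, -0.06, -0.09 and 0.10 in replicates 1 to 4, where replicate 3 was the lowest.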

How the results depend on the processing

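In edgeR, 94 of 11567 genes varied beyond the trend. The count was 92 with DESeq2 size factors, 85 without the expression filter, 256 with 1 common dispersion and 35 to 60 when a replicate was left out; of the 94 genes, 34 to 60 were called again in the latter. Fewer libraries entered those fits. The number of members called was 1, and 1 with DESeq2 size factors. It was 0 without the expression filter (2 members, Odc1 and Srm, at an unadjusted p under 0.05) and 0 with 1 common dispersion (1 member, Srm). With a replicate left out it was 0 to 1: 1 without replicate 3 and 0 without replicate 1, 2 or 4, where 1 to 2 members had an unadjusted p under 0.05. The cause was not tested. The other 9 members were not called under any of these settings. All 8 contrasts kept their sign under a pseudocount of 0.1, CPM, the longest transcript length and each left-out replicate; without division by length, Srm over Sms was 0.91 and Odc1 over Azin1 1.80. The order of Srm and Azin1 turned with the longest transcript length and without replicate 1 or 4, and that of Sms and Oaz2 without replicate 3. Of 70 recomputed member levels 17 moved by more than the SD between libraries: 10 as FPKM, which is another unit, and 7 with the longest transcript length. No paired analysis was possible because there is 1 group. At 29 to 51 counts per library, depth limits Paox.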
